A study of Mus musculus with 41 samples.

Results

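The Toll-like receptor (TLR) genes were followed through the peak lists of a mouse CUT&Tag study of histone H3 lysine 18 lactylation (H3K18la). Their members were the 10 genes Tlr1, Tlr2, Tlr3, Tlr4, Tlr5, Tlr6, Tlr7, Tlr8, Tlr9 and Tlr13, chosen by name, with earlier results of these data known, out of 21755 protein-coding genes annotated on chromosomes 1 to 19 and X. A promoter was taken as 2000 bases on each side of every annotated transcription start site (TSS) of a gene, with overlapping windows merged. A promoter was counted as called when a peak of the list covered at least 1 of its bases. In both macrophage populations H3K18la lay on most TLR promoters, 6 of 10 in bone marrow-derived macrophages (BMDM), where 18.5% of coding genes were called, and 9 of 10 in post-ischemia macrophages (PIM), where 37.8% were. With both lists reduced to the same number of bases the PIM count was 5, where 6.84% of coding genes were called. In both embryonic stem cell states it lay on none, and in myoblasts, myotubes, muscle and adipocytes on 2 to 4, mostly Tlr4 and Tlr5, where 11.1% to 44.7% of coding genes were called.

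Toll-like receptors are membrane proteins of the innate immune system that bind molecules shared by many microbes. Tlr1, Tlr2, Tlr4, Tlr5 and Tlr6 sit at the cell surface and bind bacterial lipopeptides, lipopolysaccharide or flagellin, whereas Tlr3, Tlr7, Tlr8, Tlr9 and Tlr13 sit in endosomes and bind nucleic acids. Signals pass through the adaptors Myd88 and Ticam1 to NF-kappa B and interferon regulatory factors, which switch on cytokine genes. Macrophages are the cells in which these receptors are best known. H3K18la, H3K27ac and H3K4me3 are marks found at active regulatory DNA, H3K4me3 mainly at promoters, and H3K27me3 is the repressive mark laid down by Polycomb complexes.

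The series held 41 libraries in 8 cell types, merged by the authors into 24 peak lists, 1 for each cell type and mark. E14 embryonic stem cells were kept in serum-lif (mESC-ser) or 2i-lif (mESC-2i), and primary C57BL/6 myoblasts (MB) and myotubes after 3 days of differentiation (MT) carry the medium label DMEM, which for growing myoblasts was mixed with Ham's F-10 and serum. Gastrocnemius muscle (GAS) was frozen whole and came, like PIM, from female C57BL/6 mice of 8 to 12 weeks. PIM were sorted as CD45+CD11b+F4/80+CD64+ cells from calf muscle 2 days after hindlimb ischemia. White adipocytes (ADIPO) were nuclei labelled by the adiponectin-driven Cre of AdipoCre-NuTRAP mice of 10 weeks and pulled down with streptavidin, and BMDM were cultured for 7 days with M-CSF. Stem cells entered the assay as whole cells and all others as nuclei, and every sample carried the same treatment label, control. H3K18la was profiled in 8 cell types, H3K27me3 in 7 (not ADIPO), H3K27ac in 5 (mESC-ser, GAS, ADIPO, BMDM, PIM) and H3K4me3 in 4 (mESC-ser, mESC-2i, GAS, PIM). Of the lists, 17 pooled 2 libraries and 7 held 1, among them all 3 BMDM lists and both MB lists, so that a list gave 1 value without a replicate error.

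The lists differed in extent. H3K18la peaks covered 22.6 Mb in BMDM and 137 Mb in MT, the lowest and the highest of that mark, and the median H3K18la peak measured 916 bp in BMDM and 4595 bp in mESC-2i. The lists themselves carry no read depth and signal was not scaled between them, so each count of TLR promoters is read against the share of all coding genes called in the same list, and signal only as a rank within a list.

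Each TLR gene had its promoter to itself among coding genes. The nearest TSS of another coding gene lay between 9974 bp (Tlr6) and 422973 bp (Tlr4) away, and the only foreign TSS inside a TLR promoter belonged to Gm45542 at Tlr3. In mm10 coordinates from GENCODE M21, the surface receptor genes were Tlr1 (chr5:64924679-64933563, minus strand), Tlr6 (chr5:64952031-64960097, minus), Tlr2 (chr3:83836272-83841767, minus), Tlr4 (chr4:66827584-66930284, plus) and Tlr5 (chr1:182954788-182976044, plus). The endosomal receptor genes were Tlr3 (chr8:45395665-45411080, minus), Tlr9 (chr9:106222598-106226883, plus), Tlr13 (chrX:106143204-106160493, plus), Tlr8 (chrX:167242696-167264329, minus) and Tlr7 (chrX:167304929-167330558, minus). Tlr1 and Tlr6 are neighbours with 18467 bp between them and Tlr8 and Tlr7 with 40599 bp, yet none of the 147 peaks at TLR genes touched 2 of them.

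The 250 bases before the 5' most TSS are given for the TLR genes with H3K18la in the fewest cell types (Tlr1 and Tlr3, 1 each) and in the most (Tlr5 in 5, Tlr2 in 3) among the 8 members held in the RefSeq promoter table, where Tlr8 tied with the former and Tlr6 with Tlr2 and the order of the gene names decided. They were read from the RefSeq copy of GRCm38, the assembly behind mm10, at chr5:64933564-64933813 for Tlr1, chr8:45411081-45411330 for Tlr3, chr1:182954538-182954787 for Tlr5 and chr3:83841768-83842017 for Tlr2, each 5' to 3' along the strand of its gene. Capitals mark GAGGAA, a form of the GGAA core of ETS factors that PU.1 is known to bind, or its complement TTCCTC.
Tlr1: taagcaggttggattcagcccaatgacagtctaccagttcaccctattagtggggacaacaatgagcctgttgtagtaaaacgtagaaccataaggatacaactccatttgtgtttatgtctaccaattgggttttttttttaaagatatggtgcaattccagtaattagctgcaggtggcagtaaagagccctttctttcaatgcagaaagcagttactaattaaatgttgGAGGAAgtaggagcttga
Tlr3: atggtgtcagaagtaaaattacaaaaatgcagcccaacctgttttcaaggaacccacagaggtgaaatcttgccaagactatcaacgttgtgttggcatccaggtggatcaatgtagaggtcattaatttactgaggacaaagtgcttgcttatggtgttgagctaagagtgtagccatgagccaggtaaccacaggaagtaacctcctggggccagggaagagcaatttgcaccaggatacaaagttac
Tlr5: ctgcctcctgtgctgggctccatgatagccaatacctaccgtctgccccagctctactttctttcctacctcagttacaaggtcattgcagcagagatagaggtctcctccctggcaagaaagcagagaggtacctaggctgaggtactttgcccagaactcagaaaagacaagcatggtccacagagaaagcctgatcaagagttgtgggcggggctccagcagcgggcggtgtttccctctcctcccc
Tlr2: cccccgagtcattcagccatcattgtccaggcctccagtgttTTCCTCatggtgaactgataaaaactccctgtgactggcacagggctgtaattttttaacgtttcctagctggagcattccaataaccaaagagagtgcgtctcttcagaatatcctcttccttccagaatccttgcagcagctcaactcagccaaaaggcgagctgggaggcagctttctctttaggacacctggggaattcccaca
GAGGAA lay 18 bases before the Tlr1 TSS and, on the other strand, 208 bases before that of Tlr2, and neither form stood in the windows of Tlr3 or Tlr5. Over all members it was found in 6 of 10 windows (Tlr1, Tlr2, Tlr4, Tlr8, Tlr9 and Tlr13), against 23.0% of the windows of all coding genes. TATAAA was found at 3 (Tlr6, Tlr7 and Tlr8, background 11.5%) and the AP-1 form TGANTCA at Tlr9 alone (6.01%). An interferon regulatory factor form, GAAA and GAAA with any 2 bases between (3.07% of all windows), and a kappa B form, GGGA and TTCC with any 2 bases between (1.27%), were in none of the 10. These forms are narrow. The bare GGAA core was in all 10 windows and in 93.6% of all windows, Tlr3 and Tlr5 included, and the degenerate kappa B consensus was in 7.86% of all windows and at Tlr2 alone, where ggggaattcc begins 14 bases before the TSS and overlaps a further match by all but its first base. Both strands were searched, and a match is a description of the letters only.

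The promoters were also poor in CpG. A CpG island, here any 200-base window with at least 50% GC and an observed to expected CpG ratio of at least 0.6 within 2000 bases of the 5' most TSS, was found at 4 of 10 TLR genes (Tlr1, Tlr2, Tlr3 and Tlr5) and at 72.2% of coding genes. The median number of CpG in those 4 kb windows was 37.5 for the TLR genes and 87 for coding genes. Among coding genes with an H3K18la promoter call, 85.8% in BMDM and 88.2% in PIM had an island. The TLR promoters called were 1 with an island of 6 in BMDM (Tlr2) and 3 of 9 in PIM (Tlr1, Tlr2 and Tlr5).

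H3K18la was called at 0 of 10 TLR promoters in mESC-ser, where 33.4% of coding genes were called, and at 0 of 10 in mESC-2i (37.8%). It was called at 2 in MB (background 11.1%), 3 in MT (34.8%), 2 in GAS (36.1%) and 4 in ADIPO (44.7%). In BMDM it was called at 6 (18.5%) and in PIM at 9 (37.8%). The TLR share thus stood above the share of coding genes in both macrophage lists, and below it in both stem cell lists and GAS. It was close to that share in MB (slightly above) and in MT and ADIPO (slightly below). Over gene and cell type combinations, 15 of 20 were called in macrophages (75.0%, mean background 28.2%) and 11 of 60 elsewhere (18.3%, mean background 33.0%). Tlr4 and Tlr5 made up 8 of these 11.

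**Figure D1:**
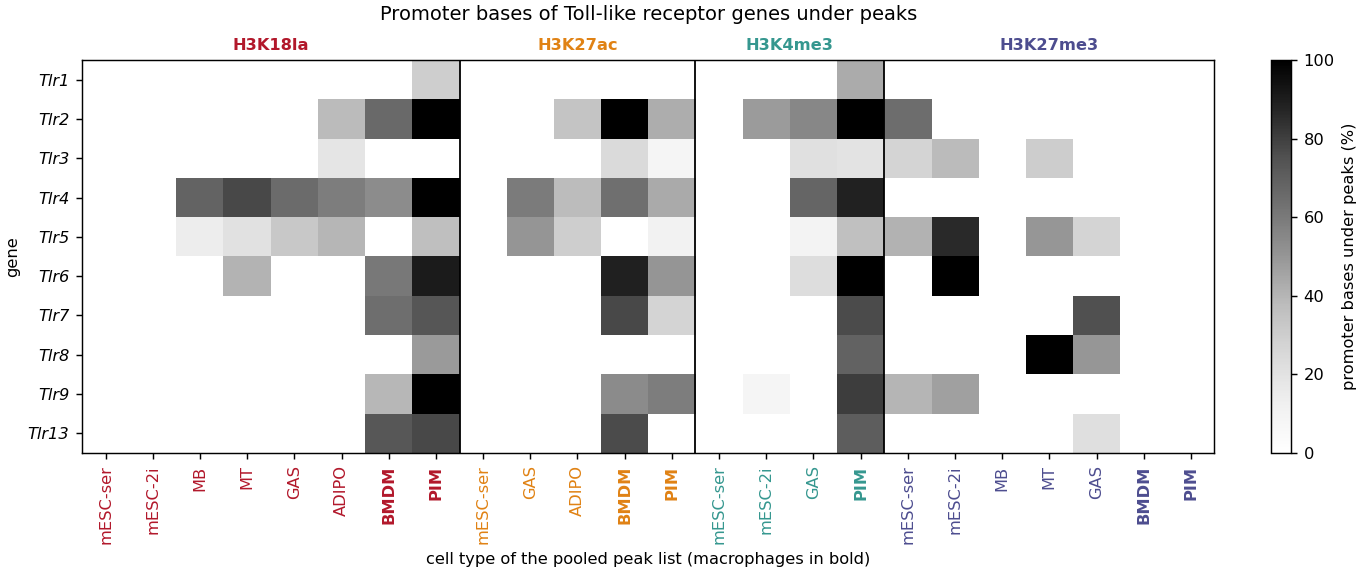
Share of promoter bases under peaks (grey scale, percent) for the 10 TLR genes (vertical axis) in the 24 pooled lists (horizontal axis, grouped and coloured by mark, macrophages in bold). The H3K18la columns of BMDM and PIM are filled for most genes, the mESC columns of that mark are empty, and both macrophage columns of H3K27me3 are empty.

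**Figure D2:**
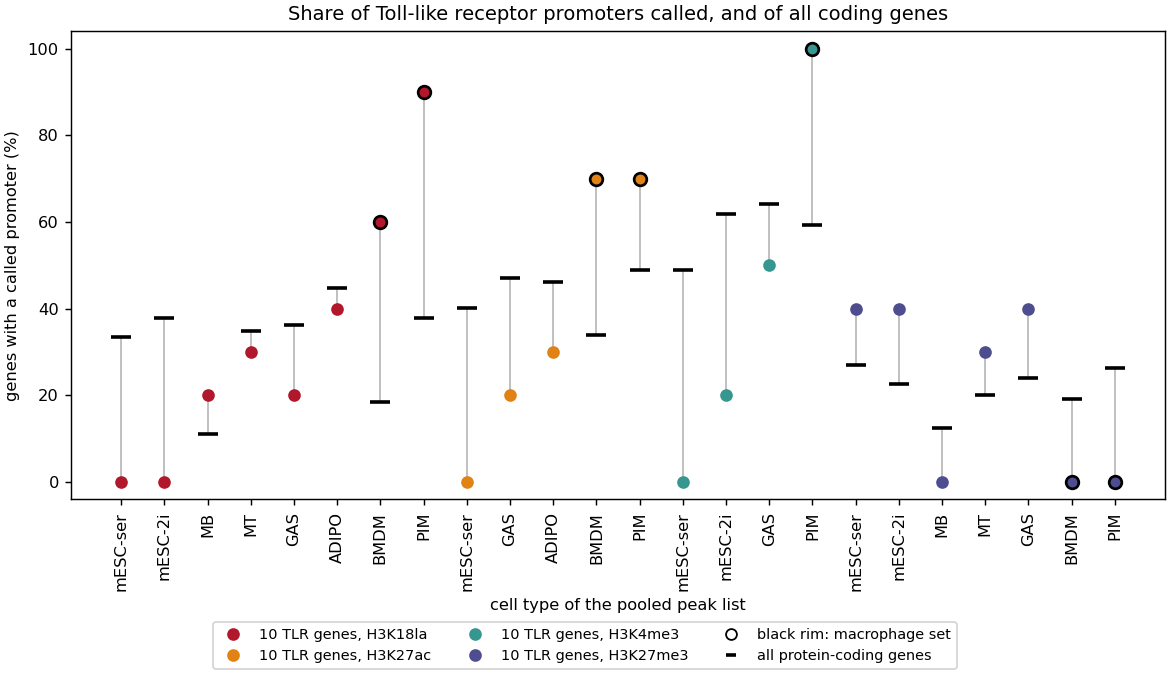
Percent of the 10 TLR promoters called (dots, coloured by mark, black rim for macrophages) and percent of all 21755 coding genes called (bars) in each pooled list. The active marks put the TLR dots above the bars in every macrophage list, and H3K27me3 puts them at 0 in both.

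The surface receptors split into a broad and a narrow group. Tlr4, the receptor for lipopolysaccharide, carried H3K18la in 6 of 8 cell types, on 100% of its promoter bases in PIM, 77.4% in MT, 68.2% in MB, 65.3% in GAS, 58.6% in ADIPO and 53.5% in BMDM. Only the stem cells lacked it, and BMDM had the least among the 6. Tlr5, the flagellin receptor, was covered over 39.8% in ADIPO, 36.6% in PIM, 32.3% in GAS, 20.5% in MT and 13.9% in MB. It had no promoter peak in BMDM, so the 2 macrophage lists differed at this gene. Its promoter includes a second, internal TSS at position 182972177 that none of these peaks reached.

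Tlr2, which pairs with Tlr1 or Tlr6 to bind lipopeptides, was covered over 100% in PIM, 66.1% in BMDM and 37.9% in ADIPO, and not in the other 5. Tlr6 was covered over 90.3% in PIM, 60.5% in BMDM and 40.5% in MT. Tlr1 was covered in PIM alone, over 30.0%. The partner genes were thus not marked alike, and Tlr1 stayed uncalled in BMDM although its neighbour Tlr6 was called there.

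Among the endosomal receptors, Tlr7 (a receptor for single-stranded RNA), Tlr9 (for unmethylated CpG DNA) and Tlr13 (for bacterial ribosomal RNA) were called in both macrophage lists and in no other, a pattern shared by 1.05% of coding genes. Tlr7 was covered over 64.3% in BMDM and 73.4% in PIM, Tlr9 over 39.4% and 100%, and Tlr13 over 73.0% and 77.6%. Tlr8 was called in PIM alone, over 48.8%. Tlr3, which binds double-stranded RNA, was the exception, with no H3K18la call in either macrophage list and 1 call in ADIPO over 18.7% of its promoter bases.

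With cell type as the unit, promoter coverage under H3K18la was higher in both macrophage lists than in all 6 others for 5 of the 10 genes (Tlr2, Tlr6, Tlr7, Tlr9 and Tlr13), against 1.57% of coding genes. Each of the 5 reached p = 0.0357 in the exact two-sided permutation test of 2 against 6 cell types, the smallest p this design allows. The p measures the spread between cell types, since each list is 1 pooled value. Nor are the cell types all independent, since mESC-ser and mESC-2i are E14 cells in different media and MT were differentiated from MB. The mean difference between macrophages and the others was 76.7 percentage points for Tlr2, 75.3 for Tlr13, 69.7 for Tlr9, 68.9 for Tlr7 and 68.6 for Tlr6. The groups overlapped for Tlr4 (31.8 points, exact p = 0.286), Tlr5 (0.568 points, exact p = 1.00) and Tlr3 (-3.12 points, exact p = 1.00), and they met at 0 for Tlr1 and Tlr8 (exact p = 0.250 each). After Benjamini-Hochberg adjustment of these exact permutation tests over all coding genes the adjusted p of every member was 1.00, and 0 of 21755 genes passed 0.05 while 468 had an unadjusted p below it. Within 1 kb of each TSS the groups separated for 3 genes only (Tlr7, Tlr9 and Tlr13), because the ADIPO peak at Tlr2 and the MT peak at Tlr6 fill more of the narrower window. Without BMDM, with PIM alone set against the other 6, the count was 8.

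The TLR peaks of macrophages also ranked high in their own lists. Peaks were ranked by total signal, the summed coverage of a peak, which grows with width as well as height. The strongest H3K18la peak of the 15 called promoters in BMDM and PIM lay at a median of the top 3.23% of its list (range 0.883% to 68.1%), and 14 of the 15 were stronger than the median promoter peak of a called coding gene. In the other cell types the 11 called promoters had a median of 28.7% (range 6.03% to 98.7%), and 7 were stronger than that median. The background medians were 48.8% in BMDM and 40.3% in PIM. By maximum signal the median of the 15 was 24.1%, and by signal per base 28.4%, so that the high ranks rested in part on width.

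In BMDM the Tlr13 peak was number 181 of 19571, a run of 8311 bp that only 0.248% of called coding genes exceeded in width. Tlr2 followed at number 336, with a peak that lay upstream, from -3952 to -1360 bases, and Tlr6 at 632, whereas Tlr7 (3061), Tlr4 (2451) and Tlr9 (4770) stood lower. In PIM the order changed. Tlr4 led at number 283 of 32066 with a peak of 7332 bp, followed by Tlr2 (473), Tlr9 (615), Tlr6 (639) and Tlr13 (940), the last with the widest TLR peak of all H3K18la lists, 11052 bp. Tlr1 was the weakest PIM call, number 21836, and the weakest of all H3K18la calls was Tlr6 in MT, number 33558 of 33991. Elsewhere the strongest by percent of the list were Tlr5 in ADIPO (6.03%, number 1735 of 28752) and Tlr4 in MT (6.46%, number 2196). Tlr4 in MB was number 1655 of a shorter list of 13550 (12.2%).

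**Figure D3:**
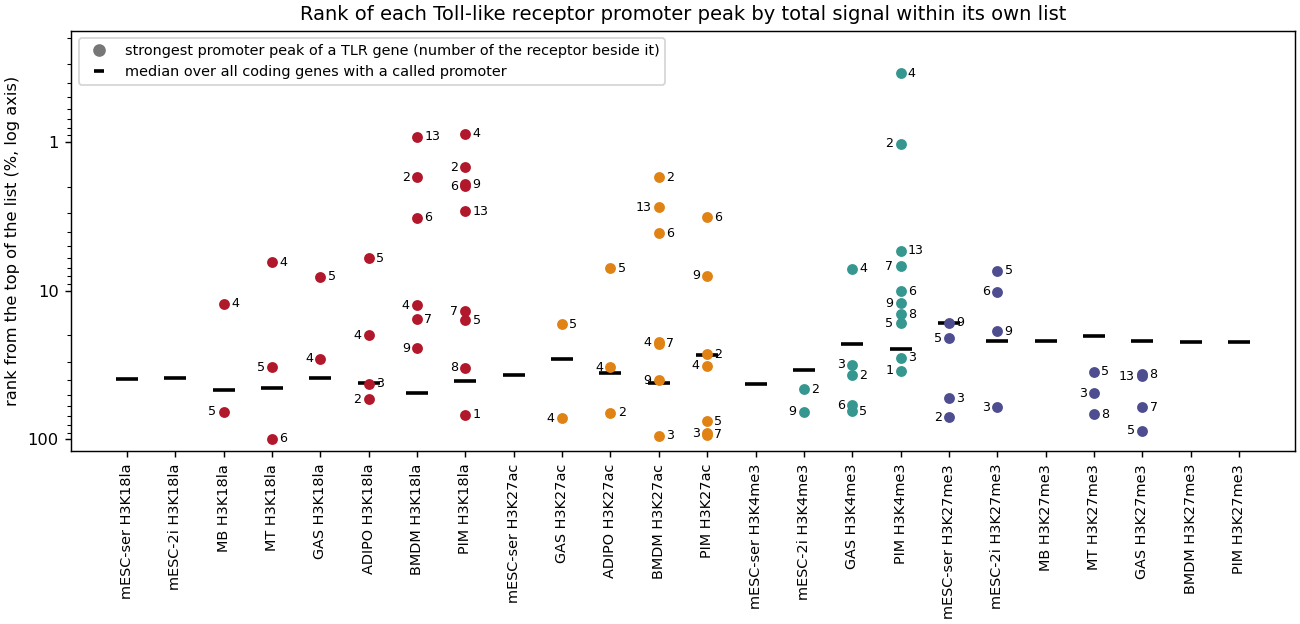
Rank from the top of its own list (percent, log axis, strongest at the top) of the strongest promoter peak of each TLR gene, marked with the number of the receptor, and the median of all called coding genes (bars). The H3K18la peaks of Tlr13 in BMDM (0.925%) and Tlr4 in PIM (0.883%) and the H3K4me3 peak of Tlr4 in PIM (0.346%) are the highest TLR peaks of their lists.

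H3K27ac was called at 7 TLR promoters in BMDM (background 34.0%) and 7 in PIM (48.8%), against 0 in mESC-ser (40.2%), 2 in GAS (47.0%) and 3 in ADIPO (46.1%). Both macrophage lists held Tlr2, Tlr3, Tlr4, Tlr6, Tlr7 and Tlr9, BMDM added Tlr13 and PIM added Tlr5. With the 5000 peaks of largest total signal in each list alone, the calls were 5 in BMDM (16.0% of coding genes) and 2 in PIM (19.1%), the latter close to the share of coding genes. Coverage was higher in both macrophage lists than in the other 3 for 5 of 10 genes (Tlr2, Tlr3, Tlr6, Tlr7 and Tlr9), against 3.20% of coding genes. A permutation of 2 against 3 cell types cannot go below p = 0.100, so none was run. Tlr3 stood apart from its H3K18la state, with H3K27ac over 24.6% of its promoter bases in BMDM and 8.19% in PIM, both low in their lists at number 12150 of 12884 and 22418 of 24643.

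H3K4me3 was called at all 10 TLR promoters in PIM (background 59.4%), at 5 in GAS (64.2%), 2 in mESC-2i (61.8%) and 0 in mESC-ser (48.8%). The GAS calls were Tlr2, Tlr3, Tlr4, Tlr5 and Tlr6, and none of the 3 X-linked genes nor Tlr1 or Tlr9 was among them. The Tlr4 peak in PIM was number 88 of 25448 and that of Tlr2 number 263. The weakest TLR promoter in PIM was again Tlr1, number 8803. The mESC-2i calls were Tlr2, over 48.4% of its promoter, and Tlr9, over 8.50%, and the latter lay from 1661 to 4325 bases past the TSS without touching it.

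Within macrophages the marks shared bases. In BMDM, 14726 promoter bases of the 10 genes lay under H3K18la and 21145 under H3K27ac, and 99.8% of the former were also under the latter, against 85.1% over the promoters of all coding genes. In PIM the order of extent turned, with 29025 bases under H3K18la and 10792 under H3K27ac, and 93.4% of the H3K27ac bases were under H3K18la (57.1% over all coding genes). Only 34.7% of the PIM H3K18la bases were under H3K27ac, less than the 49.7% over all coding genes. PIM H3K4me3 covered 31146 bases, of which 86.0% were under H3K18la (39.5% over all coding genes). The 57.1% and 39.5% include coding genes without an H3K18la call in PIM. There 37.8% of coding genes had such a call, against 9 of the 10 TLR genes. The BMDM lists and the PIM H3K27ac list each came from 1 library, and over all peaks the median H3K27ac width was 956 bp in PIM and 2137 bp in BMDM, while that of H3K18la was 1615 bp and 916 bp. The part of these list-wide widths in the turn was not tested. All 6 H3K18la calls of BMDM were also H3K27ac calls, and 6 of the 9 in PIM, where Tlr1, Tlr8 and Tlr13 had H3K18la and H3K4me3 without H3K27ac. Of all coding genes called for H3K18la, 88.4% in BMDM and 90.7% in PIM were also called for H3K27ac. At Tlr13 in PIM the H3K27ac peak lay in the gene, from 6079 to 6998 bases past the TSS.

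H3K27me3 was called at 0 of 10 TLR promoters in BMDM (background 19.2%) and 0 of 10 in PIM (26.4%). No H3K27me3 peak of these lists touched the gene body of any of the 10 either. It was called at 4 in mESC-ser (27%), 4 in mESC-2i (22.5%), 3 in MT (20.1%), 4 in GAS (23.9%) and 0 in MB (12.5%). With every list reduced to the 54.8 Mb of largest total signal that MB has, the calls left were Tlr5 and Tlr9 in mESC-ser (19.5% of coding genes) and Tlr5 and Tlr6 in mESC-2i (9%), and none was left in MT (6.26%) or GAS (10.6%). Since MB also had none, coverage was lower in both macrophage lists than in all 5 others for 0 of the 10 genes, against 0.809% of coding genes. The exact two-sided permutation p of 2 against 5 cell types ranged from 0.238 (Tlr5) to 1.00, with an adjusted p of 1.00 for each, where 0.0476 is the smallest possible. By the same test 1008 coding genes had an unadjusted p below 0.05 and 0 passed after adjustment.

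The repressive calls fell on different genes in different cells. In stem cells they were Tlr3, Tlr5 and Tlr9 in both media, with Tlr2 in serum (64.8% of promoter bases) and Tlr6 in 2i, where a peak of 12914 bp covered the whole Tlr6 gene. At Tlr9 they began 397 and 136 bases past the TSS and ran through the gene. The Tlr3 calls in mESC-ser, mESC-2i and MT did not reach the 5' starts but an internal TSS at position 45398286, and the MT call at Tlr5 was likewise at its internal TSS. With the 5' most TSS of each gene alone, 22% of the combinations outside macrophages were called, against 30.0%. Tlr1 and Tlr4 had no H3K27me3 call in any of the 7 cell types. Those of GAS were Tlr5, Tlr7, Tlr8 and Tlr13 and those of MT Tlr3, Tlr5 and Tlr8.

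Tlr7, Tlr8 and Tlr13 are X-linked, and H3K27me3 is also known to coat the inactive X of female cells. In GAS 29.7% of the 948 X-linked coding genes were called for H3K27me3 against 23.7% of autosomal ones, and in MT 27.7% against 19.8%. In PIM these shares were 15.1% and 27%, in BMDM 7.49% and 19.8% and in MB 7.49% and 12.8%. The part of the X chromosome in the calls at the 3 genes was not tested.

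Of the 7 cell types with both lists, only GAS and MT could show H3K18la and H3K27me3 on the same TLR promoter bases. H3K18la covered 0 of these bases in both stem cell lists, and H3K27me3 covered 0 in MB, BMDM and PIM. In GAS the marks shared 1562 bases of Tlr5. Myotubes carried both marks at Tlr5 on separate bases, H3K18la near the 5' start and H3K27me3 near the internal TSS. Whole muscle holds many cell types, and neither the overlap at Tlr5 nor any single call tells fewer cells with a mark from less mark in each cell.

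Peaks inside the genes added to the promoter calls. With gene bodies included, H3K18la was called at 2 TLR genes in mESC-ser (Tlr5 and Tlr9, background 39.5%), 1 in mESC-2i (Tlr4, 43.9%), 2 in MB (18.5%), 4 in MT (42.8%), 2 in GAS (43.0%), 5 in ADIPO (50.4%), 7 in BMDM (25.4%) and 9 in PIM (43.8%). Tlr13 joined in MT and ADIPO, and Tlr5 in BMDM. Tlr3 was then the only one of the 10 members with H3K18la in neither macrophage list.

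Several intragenic peaks recurred at the same place in different cells. At Tlr13 the MT peak lay from 4926 to 7764 bases past the TSS and the ADIPO peak from 5884 to 7462, both inside the run that PIM carried from -1097 to 9954 bases. At Tlr5 the BMDM peak from 4197 to 5575 bases lay inside those of PIM (1396 to 6502), GAS (-558 to 6277) and ADIPO (-1159 to 6091), and inside that of mESC-ser (3553 to 10649). H3K4me3 was called there in GAS (4167 to 5840), PIM (3492 to 5908) and mESC-2i (2244 to 6099). Across the long Tlr4 gene PIM had 12 H3K18la peaks, ADIPO and MT 5 each, BMDM and MB 4 each and GAS 1. A Tlr4 site starting 23916 to 24028 bases past the TSS was shared by PIM, BMDM, MT and ADIPO, and MB, GAS and both stem cell lists lacked it. The mESC-2i peaks at Tlr4, for H3K18la (73480 to 80526 bases) and H3K4me3 (74352 to 77429 bases), met no peak of another cell type.

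**Figure D4:**
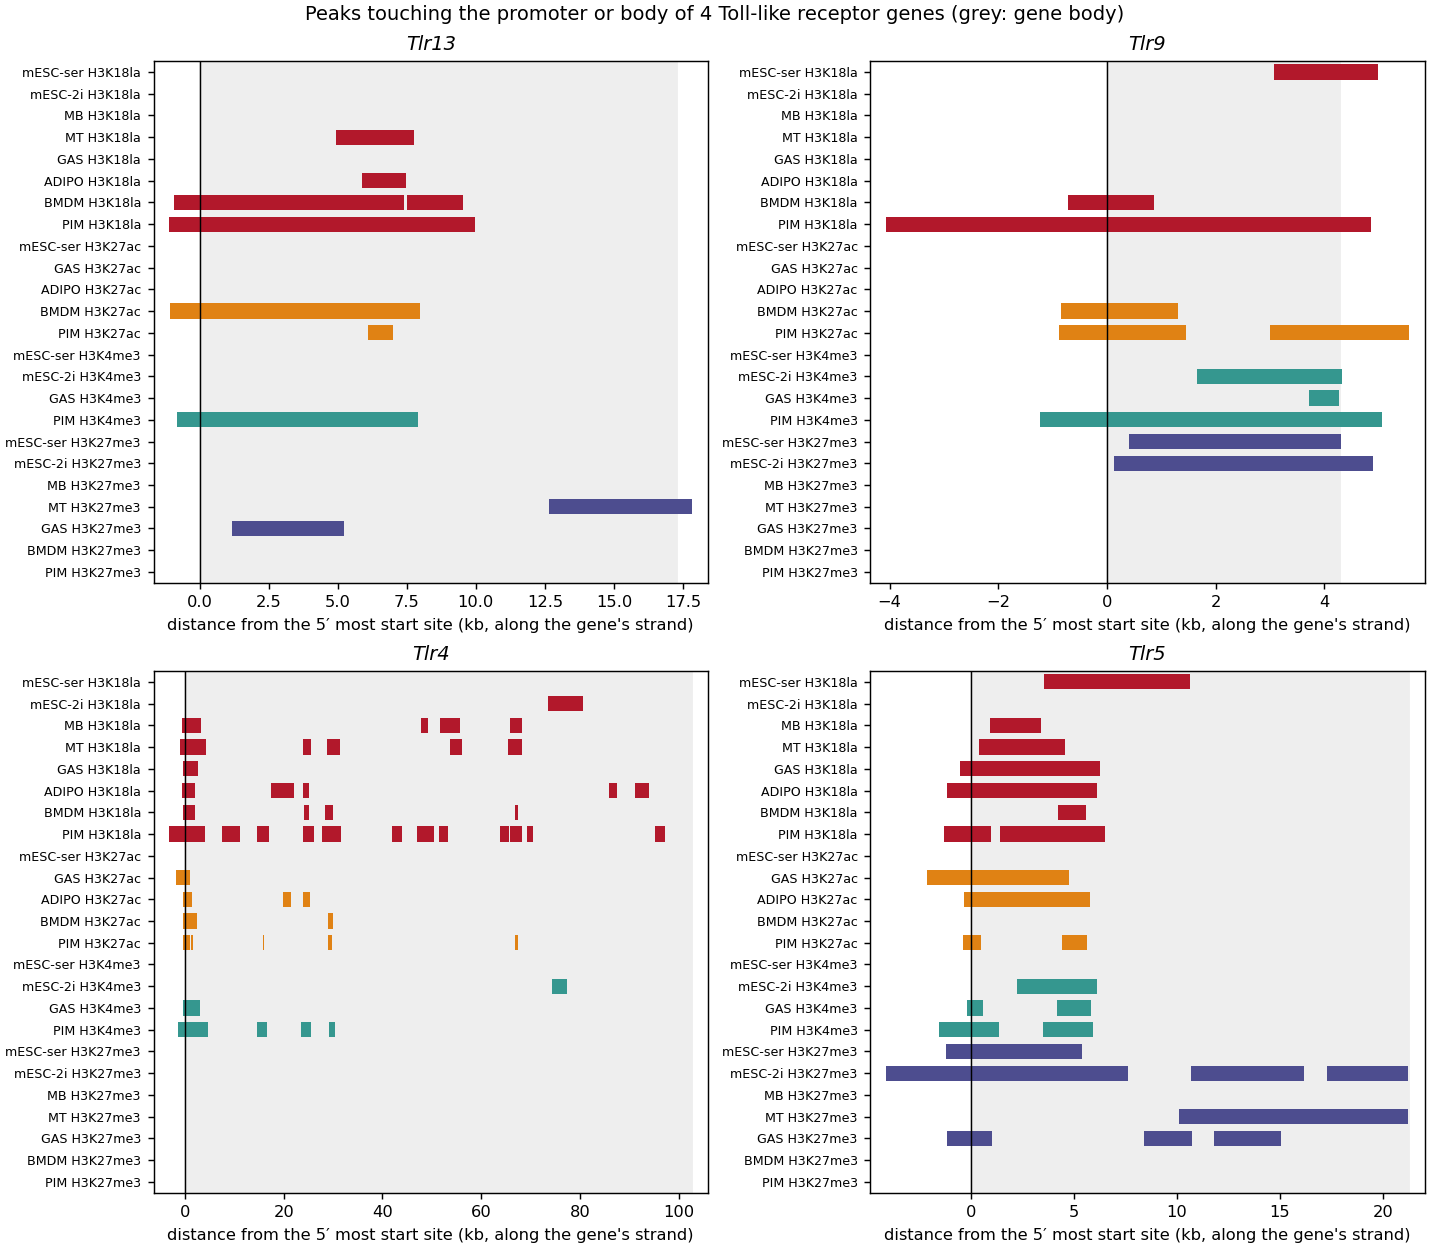
Peaks that touch the promoter or body of Tlr13, Tlr9, Tlr4 and Tlr5 in the 24 lists (rows, coloured by mark) against distance from the 5' most TSS along the strand of the gene (kb, each panel with its own scale), with the gene body shaded. At Tlr13 and Tlr9 the peaks over the TSS belong to BMDM and PIM, at Tlr4 they belong to all cell types but the stem cells, and at Tlr5 H3K27me3 takes up the same 5' region in stem cells and GAS.

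How the members varied together was described by the Pearson correlation of promoter coverage over the 24 lists, which share cell types and libraries and so are no independent points. Over the 45 pairs the median r was 0.44, from -0.03 (Tlr5 with Tlr13) to 0.91 (Tlr7 with Tlr13). Tlr6 and Tlr9 (r = 0.86) were next. Tlr5 was the least like the endosomal genes Tlr7 (r = -0.01) and Tlr13, and Tlr3 the least like Tlr4 (r = 0.01).

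Outside the family, the coding genes with the most similar coverage were, for Tlr7, Mefv (r = 1.00), Cd300ld3 and Tifab (0.96 each), and for Tlr13, F9 (0.99), Glipr1 and Gm5150 (0.98 each). For Tlr9 and Tlr6 the list met at Pld4, an endolysosomal nuclease gene (r = 0.94 with each), beside Gpr65 and Slc15a3 (0.93 each) for Tlr9 and Wdfy4 (0.96) and Cyth4 (0.94) for Tlr6. For Tlr2 they were Ctsh (0.94), Lacc1 (0.89) and Ccdc122 (0.88), and for Tlr4 Pold4 and Fyco1 (0.92 each) and Serpinb8 (0.91). Tlr3 was most like H2-Q4 (0.86), Tap1 (0.81) and Psmb8 (0.80), genes of antigen presentation, and Tlr5 like 6430548M08Rik (0.80), Gbp5 (0.79) and Usp18 (0.78). Tlr8 was most like Ipcef1 and Bmx (0.92 each) and Rnase6 (0.90), and Tlr1, with calls in 2 lists only, like Gm6904, Trim30c and 9430069I07Rik (0.99 each). An r of at least 0.9 was reached by 44 genes for Tlr13, 32 for Tlr1 and 11 for Tlr7 but by 0 for Tlr3 and Tlr5.

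The other genes of the pathway were read from lists by role, against 18.5% of coding genes called in BMDM, 37.8% in PIM and 11.1% (MB) to 44.7% (ADIPO) elsewhere. Of 9 co-receptor and trafficking genes, H3K18la was called at 8 promoters in BMDM and 9 in PIM, and at 1 to 6 elsewhere. Cnpy3, a chaperone of the receptors, and Ly86, the partner of Cd180, were called in both macrophage lists and no other, whereas Unc93b1, which carries the endosomal receptors to their compartment, was called in all but MB. Of 18 adaptors and kinases, 11 were called in BMDM, 17 in PIM and 3 to 14 elsewhere, with Tab2 as the only one limited to the macrophage lists and Irak2 in all 8. Myd88, the main adaptor, was called in all but MB.

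Of 11 transcription factors, 8 were called in BMDM, 10 in PIM, 11 in GAS and 1 to 8 in the remaining lists, none was limited to macrophages, and Nfkb1 was called in all 8. Of 9 inhibitors, 6 were called in BMDM, 9 in PIM and 4 to 8 elsewhere, with Socs1, Dusp1 and Zfp36 in all 8. The 12 target genes, cytokines, chemokines and inducible enzymes, had 7 calls in BMDM, 11 in PIM, 4 in MT and 0 or 1 in the other 5 lists. Tnf, Il10, Cxcl2 and Ccl3 among them were called in both macrophage lists and no other. The median number of cell types with a call was 2 for the receptors, the target genes and all coding genes, 4 for the co-receptors, 4.5 for the adaptors and kinases, 5 for the transcription factors and 6 for the inhibitors.

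Other receptor families were read in the same way and against the same shares. Of 12 other innate sensors, 6 were called in BMDM, 10 in PIM and 1 to 5 elsewhere. Nlrp3, Clec7a, Clec4e and Mrc1 were among the 5 limited to macrophages, and Marco and Cd209a had no call in any list. All 4 Fc gamma receptor genes were called in both macrophage lists, and Fcgr1 in no other. In mESC-ser and mESC-2i 2 of 4 were called (Fcgr2b and Fcgr3), as in MT (Fcgr2b and Fcgr4). MB had 1 (Fcgr2b), and GAS and ADIPO had 0. Tlr11 and Tlr12, the other TLR genes of the mouse and not among the members, had no H3K18la call in any of the 8 lists. The Tlr12 promoter was called for H3K27me3 in PIM, MB, GAS and both stem cell lists, and for H3K4me3 in PIM.

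**Figure D5:**
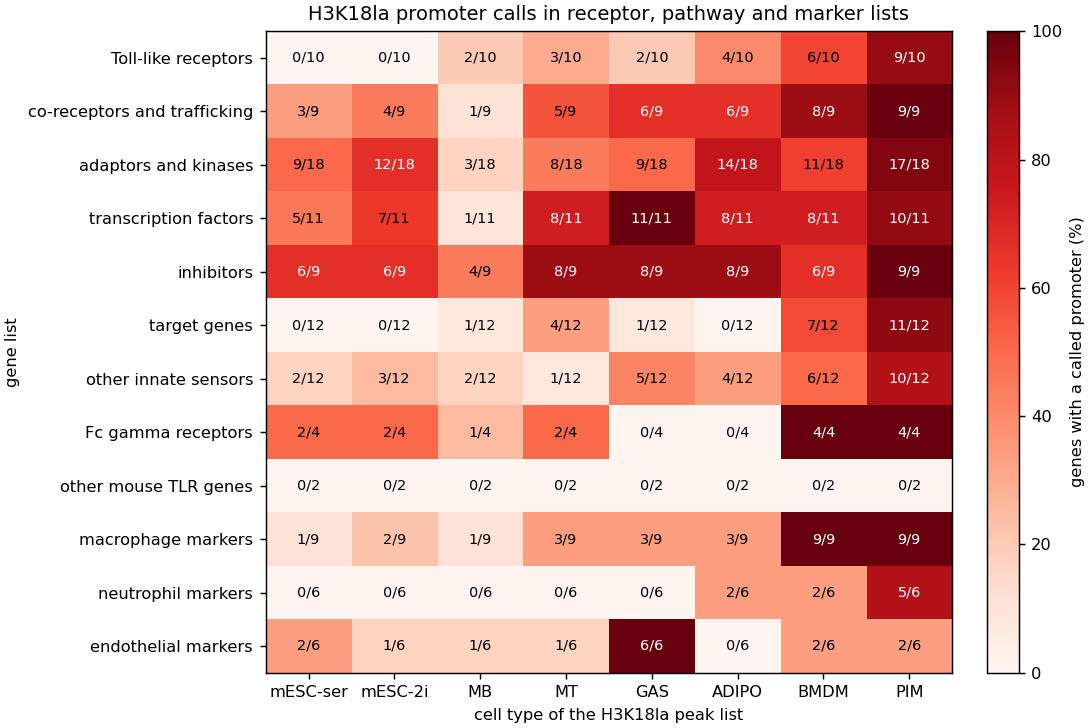
H3K18la promoter calls (called of listed genes in each cell, colour in percent) for the TLR genes, the pathway lists, other receptors and marker lists (rows) in the 8 cell types (columns). The TLR row fills to 6 and 9 of 10 in BMDM and PIM and the target genes to 7 and 11 of 12, while 4 to 9 of 9 inhibitors are called in every cell type.

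The labels were checked against markers. All 9 macrophage markers had H3K18la promoter calls in BMDM and PIM, although the proteins of Ptprc, Itgam, Adgre1 and Fcgr1 were used in the PIM sort and show nothing there. All 6 stem cell markers were called in both mESC lists and no other, all 6 adipocyte markers in ADIPO (and 3 of 6 in PIM, 2 in BMDM, 2 in GAS and 1 in MB, Adipoq among them in both macrophage lists), and 4, 7 and 6 of 8 muscle markers in MB, MT and GAS (and Acta1 and Des in ADIPO). Macrophage markers were called in 1 (mESC-ser, MB) to 3 of 9 in the other cell types. They were Cd68, Mertk and Lyz2 in ADIPO, Csf1r, Mertk and C1qa in GAS and Csf1r, Cd68 and Mertk in MT, and Adgre1, Itgam, Fcgr1 and Ptprc were called in none of these. Endothelial markers were called in 6 of 6 in GAS, where fibroblast markers reached 5 of 6, against 4 of 6 in ADIPO. Neutrophil markers were called in 5 of 6 in PIM (all but S100a9), against 2 of 6 in BMDM and ADIPO, and lymphocyte markers in 1 of 6 in PIM and BMDM (Ms4a1). PIM were sorted for F4/80 and CD64, and ADIPO nuclei were pulled down through adiponectin-driven Cre. The lists carry no measure of how many other cells remained. The part of such other cells in the TLR calls of GAS, ADIPO and PIM was not tested.

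The contrast of macrophages with other cells was also read at equal extent. With every H3K18la list reduced to the 22.6 Mb of largest total signal that BMDM has, TLR promoters were called at 6 in BMDM (18.5% of coding genes), 5 in PIM (6.84%), 1 in ADIPO (Tlr5, 4.99%), 1 in MB (Tlr4, 4.39%) and 0 in mESC-ser, mESC-2i, MT and GAS (2.31% to 5.54%). The 5 genes kept in PIM were Tlr2, Tlr4, Tlr6, Tlr9 and Tlr13, all of which were also called in BMDM, while Tlr1, Tlr5, Tlr7 and Tlr8 fell away. The calls of Tlr1, Tlr5 and Tlr8 that set PIM apart from BMDM were therefore absent once both lists covered the same number of bases.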

How the data were processed

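CUT&Tag, in which an antibody tethers a transposase to a histone mark, was applied by the authors to 41 libraries. Per the labels and the study's methods, reads were trimmed (Trim Galore 0.6.6), mapped to mm10 (Bowtie2 2.4.4), handled with SAMtools 1.13 and bedtools 2.30, merged over the replicates of a group and called with SEACR 1.3. The deposited lists hold for each peak its total signal and its maximum signal, that is summed and highest read coverage, unscaled between lists. The H3K4me3 and H3K27me3 stem cell lists named without a medium were taken as the serum lists that the labels describe. The read totals per library that the study lists, by far the lowest for 1 of the ADIPO H3K27ac libraries, were not used, and no interval is given. Where a list pools replicates, their spread is lost.

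From there, peaks on chromosomes 1 to 19 and X were overlapped with GENCODE M21 promoters (2000 bases on each side of a TSS, 1 base of overlap) and gene bodies with numpy 2.4.6. The overlap and the permutation code were checked on simulated data and against bedtools 2.31.1 and scipy 1.17.1. Macrophages (BMDM, PIM) were compared with the other cell types by exact two-sided permutation of promoter coverage with Benjamini-Hochberg adjustment over 21755 coding genes. All members are named. Of each gene list, at most 4 genes are named as limited to macrophages, and those called in no list or in all 8, with Unc93b1 and Myd88 added after their values were seen. The most similar genes are the 3 of highest r that lie over 100 kb from the member. The members and gene lists were chosen with earlier results of these data known. The wider motif forms, the shares of mark overlap over all coding genes and the shares of coding genes called by the 5000 strongest peaks were added after the member values were seen. Alternatives changed the promoter width, the TSS used, the overlap, the list length and the cell types entered.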

Additional observations from a re-analysis of the deposited data

How the results depend on the processing

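No paired analysis was possible because no list gives values per replicate, 17 of them pooling 2 libraries and 7 holding 1. With only the 5000 peaks of largest total signal in each list, the share of TLR gene and cell type combinations with H3K18la in other cell types fell to 6.67% from 18.3%, that with H3K27me3 to 8% from 30%, that with H3K27ac to 3.33% from 16.7%, and that with H3K27ac in macrophages to 35% from 70%, where 4.51% to 14.0%, 8.18% to 15.3%, 13.9% to 17.4% and 16.0% to 19.1% of coding genes were called. With lists of a mark reduced to equal bases these were 3.33% for H3K18la, 8% for H3K27me3 and 3.33% for H3K27ac in other cell types, where 2.31% to 5.54%, 6.26% to 19.5% and 4.27% to 35.0% of coding genes were called. Both settings keep fewer peaks, and the share of coding genes fell with them except in the list that set the extent. H3K18la in macrophages was 60% (4.72% and 7.69% of coding genes) and 55% (18.5% and 6.84%) under them, against 75%. Promoters of 1 kb gave 3 genes, not 5, with more H3K18la in both macrophage lists than elsewhere. Leaving out each cell type in turn gave 60% to 90% for H3K18la in macrophages and 14% to 22% elsewhere, 5 to 8 for the genes higher in macrophages (8 without BMDM), 0% for H3K27me3 in macrophages and 27.5% to 37.5% elsewhere, 0 to 1 for the genes lower there (Tlr5 without MB), 70% for H3K27ac in macrophages and 10% (without ADIPO) to 25% elsewhere. The setting with the 5' most TSS alone was added after seeing the data, and it, the coding TSS, the 200-base overlap and the gene bodies moved no result by over 1.5 times. Ranks by maximum signal or per base are lower, as given above. Taking all annotated genes as background lowered the mean share called over the 24 lists to 21.4% from 35.7%. Signal unscaled for depth and the single library behind 7 lists limit all absences of a call.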

Other observations

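Marks other than H3K18la were also read at the target genes, and no likeness to the receptors was tested. H3K27ac was called at 6 of 12 target gene promoters in BMDM and 7 in PIM, against 0 in mESC-ser and ADIPO and 2 in GAS, where 34.0%, 48.8%, 40.2%, 46.1% and 47.0% of coding genes were called in the same order. H3K27me3 was called at 6 in mESC-ser and 7 in mESC-2i, both including Tnf, Il12b, Cxcl10, Nos2 and Cxcl2, at 4 in MT, 3 in GAS and 2 in PIM, and at 1 each in MB and BMDM. The shares of coding genes were 27%, 22.5%, 20.1%, 23.9%, 26.4%, 12.5% and 19.2% in that order. H3K4me3 was called at 8 in PIM (59.4% of coding genes), 5 in GAS (64.2%), 2 in mESC-2i (61.8%) and 0 in mESC-ser (48.8%). In PIM the shares of target genes called, 58.3% for H3K27ac and 66.7% for H3K4me3, were near those of coding genes. Nos2, the inducible nitric oxide synthase, had H3K27me3 in all 7 cell types, macrophages included, and in BMDM and MT H3K18la was called at the same promoter.

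All 4 Fc gamma receptor genes were called for H3K27me3 in GAS (23.9% of coding genes), 2 of 4 (Fcgr1 and Fcgr3) in MT (20.1%), Fcgr3 alone in mESC-ser (27%), mESC-2i (22.5%), BMDM (19.2%) and PIM (26.4%), and none in MB (12.5%). These genes were singled out after their values were seen, and no difference between the lists was tested.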
